A study of Mus musculus with 7 samples.

Results

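The Hox genes of the HoxA, HoxB, HoxC and HoxD clusters were followed through the open chromatin of 7 mouse libraries taken from the first pharyngeal arch and the teeth. The members were chosen by name as the Hox genes of the 4 clusters. No measured value entered the choice, though earlier results of these data were known when it was made. Of the 21882 protein-coding genes compared here, 38 are members (10 in HoxA, 10 in HoxB, 9 in HoxC and 9 in HoxD). Hox genes encode homeodomain transcription factors that give cells of the trunk, limbs and hindbrain their position along the body axis. Their order along a cluster follows the order in which they are used along the axis, from group 1 at the head end to group 13 at the tail end. The mesenchyme of the first pharyngeal arch, which forms the skeleton of the jaws, is known for using no Hox genes. The arch libraries here were made from ectoderm. The second arch is where Hoxa2 begins to be used. In cells that do not use them, Hox clusters are typically held silent by Polycomb group proteins.

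ATAC-seq reads accessibility from where a transposase can insert adapters, which is mostly DNA free of nucleosomes, so a peak marks an accessible site and says nothing directly about transcription. Ectoderm was peeled from the first arch at embryonic day 11.5 after Dispase II treatment and gave 2 libraries (ectoderm 1 and 2). Sox2-positive cells were sorted at postnatal day 2 from the labial cervical loop of the lower incisor, the epithelial pocket that keeps this tooth growing, in mice with a GFP reporter at the endogenous Sox2 promoter (Sox2-positive 1 and 2, called DESC in the labels). Whole teeth at postnatal day 2 gave 1 library each: the lower incisor, the lower first molar and the upper first molar. No deletion or treatment is given for any group, the labels do not say whether animals were pooled, and the whole-tooth libraries hold epithelium and mesenchyme together. Replicates are separate samples by their titles, and nothing says that they came from separate litters or sorts, so their spread may be technical.

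Deposited lists held from 38326 to 80850 autosomal peaks, with 80850 and 49719 in the ectoderm, 41829 and 38326 in the Sox2-positive cells, and 62074, 68877 and 67193 in the whole teeth, given here and below in the order incisor, lower molar, upper molar. Read depth is unknown, and a longer list can hold more Hox peaks for that reason alone. Counts were therefore made on the full lists and again on the 38000 autosomal peaks with the smallest p in each library (the shortened lists), which is 47.0% of the list of ectoderm 1 and 99.1% of that of Sox2-positive 2. Epithelial marker genes had a peak at a gene end in 9, 9, 9 and 8 of 11 cases in the ectoderm and Sox2-positive libraries. Mesenchymal markers had one in 6, 5, 8 and 7 of 8, so these totals did not separate the tissues. With the lists shortened the totals were 8, 9, 9 and 8 of 11 and 5, 5, 7 and 7 of 8. Single genes could differ: in both kinds of list Tfap2a had one in the ectoderm libraries alone, and Pdgfra and Runx2 in the 5 postnatal libraries alone. Trp63, a defining gene of stratified epithelium, had no gene-end peak in any library. The count covers the outer ends of a gene model alone, so a peak elsewhere in Trp63 would not be seen.

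A few promoters of the clusters are printed first because they frame the result: one that lay under a peak, one that lay partly under a peak, and a pair rich in CpG dinucleotides that lay under none. They come from RefSeq (GRCm38.p6) and run from 250 bases before to 50 after the start of transcription, 5′ to 3′, with every CpG in capitals.
Hoxd1, chr2:74762730-74763029, plus strand: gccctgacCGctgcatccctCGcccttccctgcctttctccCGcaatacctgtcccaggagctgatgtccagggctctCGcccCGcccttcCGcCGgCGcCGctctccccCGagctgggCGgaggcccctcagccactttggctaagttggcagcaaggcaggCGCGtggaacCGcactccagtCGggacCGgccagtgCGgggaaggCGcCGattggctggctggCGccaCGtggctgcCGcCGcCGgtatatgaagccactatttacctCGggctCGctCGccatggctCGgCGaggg
Hoxa10, chr6:52240805-52241104, minus strand: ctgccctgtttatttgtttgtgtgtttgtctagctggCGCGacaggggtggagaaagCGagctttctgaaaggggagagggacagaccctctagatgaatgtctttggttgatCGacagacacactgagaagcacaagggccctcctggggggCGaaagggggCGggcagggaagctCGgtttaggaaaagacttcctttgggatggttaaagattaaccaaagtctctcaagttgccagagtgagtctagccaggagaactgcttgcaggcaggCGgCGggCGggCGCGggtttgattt
Hoxd13, chr2:74667975-74668274, plus strand: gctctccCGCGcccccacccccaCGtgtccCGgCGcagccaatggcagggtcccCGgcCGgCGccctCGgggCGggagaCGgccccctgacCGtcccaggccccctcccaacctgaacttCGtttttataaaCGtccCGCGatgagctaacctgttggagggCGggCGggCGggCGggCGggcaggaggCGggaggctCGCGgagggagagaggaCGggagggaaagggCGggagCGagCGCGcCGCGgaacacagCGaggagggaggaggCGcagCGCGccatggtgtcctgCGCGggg
Hoxa13, chr6:52260831-52261130, minus strand: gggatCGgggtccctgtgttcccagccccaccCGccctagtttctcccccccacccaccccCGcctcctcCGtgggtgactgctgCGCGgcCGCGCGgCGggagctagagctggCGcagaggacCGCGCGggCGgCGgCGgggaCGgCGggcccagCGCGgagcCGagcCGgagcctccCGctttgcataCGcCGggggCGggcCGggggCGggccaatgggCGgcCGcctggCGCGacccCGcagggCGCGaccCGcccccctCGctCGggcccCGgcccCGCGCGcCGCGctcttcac

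The Hoxd1 sequence has 29 CpG and 69.7% GC, and it lay inside a peak in both ectoderm libraries and in no other. The Hoxa10 sequence has 12 CpG and 54.3% GC, and its downstream end overlapped a peak of ectoderm 1. Hoxd13 has 37 CpG at 74.3% GC and Hoxa13 has 45 CpG at 81.0% GC, more than Hoxd1 by both measures, and neither lay under a peak in any of the 7 libraries. The RefSeq table holds 24 promoters of 22 of the 38 Hox genes, and besides Hoxd1 and Hoxa10 only that of Hoxd10 overlapped a peak, in ectoderm 1. The 24 Hox promoters had a median of 14.5 CpG and 57.7% GC, against 7.0 and 52.7% over all 32851 promoters of the table.

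The Hox clusters carried few gene-end peaks in every library. A gene was counted when the summit of a peak lay within 1 kb of either end of its RefSeq gene model, since the gene table gives no strand. In the full lists 8 Hox genes were counted in ectoderm 1, 6 in ectoderm 2, 1 in Sox2-positive 1, none in Sox2-positive 2, 1 in incisor, 2 in lower molar and 1 in upper molar. Those are 21.1%, 15.8%, 2.63%, 0%, 2.63%, 5.26% and 2.63% of the 38 genes. Over all protein-coding genes the same count gave 63.1% and 60.0% in the ectoderm, 54.6% and 53.3% in the Sox2-positive cells, and 57.0%, 58.5% and 58.3% in the whole teeth (incisor, lower molar, upper molar). The Hox share was below that of all genes in 7 of 7 libraries. With 38000 peaks per library, 2 Hox genes remained countable in each ectoderm library, 1 in Sox2-positive 1, 0 in Sox2-positive 2 and 1 in each whole tooth. All genes then stood at 53.5% and 55% in the ectoderm, 51.8% and 51.7% in the Sox2-positive cells, and 49.7%, 50% and 50.1% in the whole teeth.

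**Figure D1:**
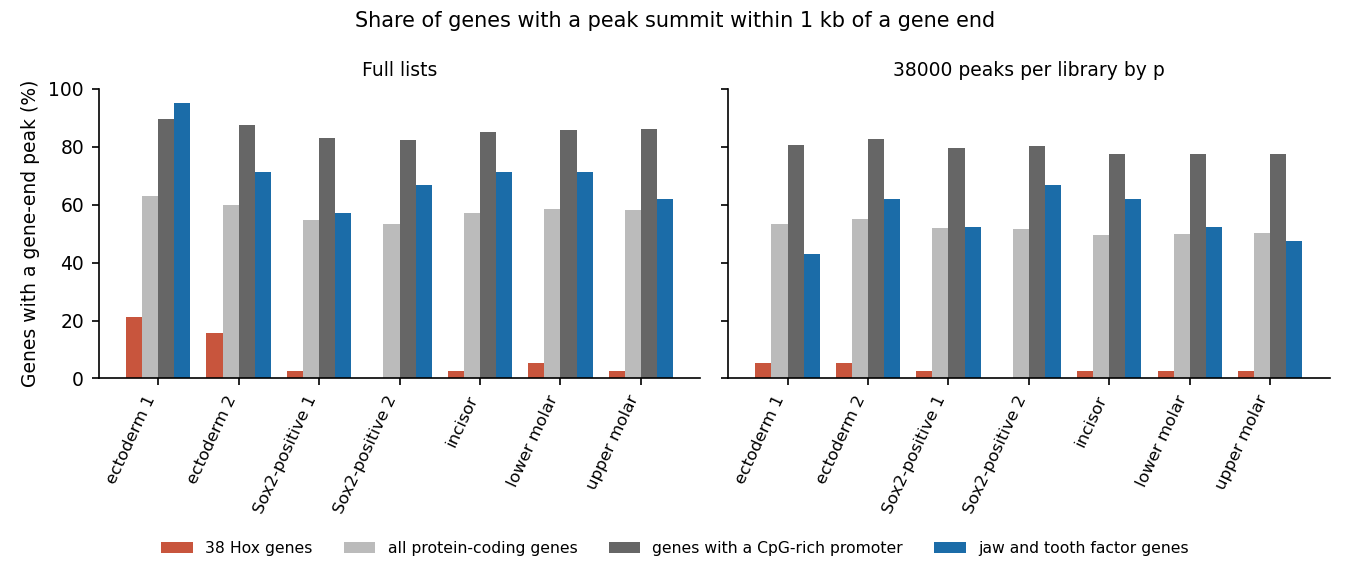
Percent of genes (vertical axis) with a peak summit within 1 kb of a gene end in each library (horizontal axis), for the full lists on the left and 38000 peaks per library on the right. Bars give the 38 Hox genes, all protein-coding genes, genes with a CpG-rich promoter and 21 transcription factor genes of jaws and teeth; the Hox bar is the lowest in every library and is 0 in Sox2-positive 2.

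A CpG-rich promoter usually lies in open chromatin, and Hox promoters are richer in CpG than the average, so genes with such promoters are the closer comparison. Of the 7712 protein-coding genes whose table promoter had at least 55% GC and an observed-to-expected CpG ratio of at least 0.6, between 82.5% and 89.8% had a gene-end peak in the full lists. Of the Hox genes, 9 met the same rule (Hoxa10, Hoxa13, Hoxa3, Hoxa5, Hoxa6, Hoxd1, Hoxd10, Hoxd11 and Hoxd13), and 2 of them, Hoxd1 and Hoxa10, had one in both ectoderm libraries and none in the other 5. A gene met the rule through any of its promoters, and the Hoxa10 peaks lay by the promoter that missed it (54.3% GC, ratio 0.596). The CpG-rich promoter of Hoxa10 (57.3% GC, ratio 0.853) lay under no peak. That of Hoxd10 overlapped a peak of ectoderm 1 that lay away from the gene ends. With shortened lists the share of CpG-rich genes was 77.6% to 82.7%, and Hoxd1 alone of the 9 had a peak, again in the ectoderm. A list of 21 transcription factor genes of jaws and teeth outside the clusters, homeobox genes such as the Dlx, Msx and Lhx genes and Hand2 of the basic helix-loop-helix family, had gene-end peaks in 20, 15, 12, 14, 15, 15 and 13 cases in the order ectoderm 1 and 2, Sox2-positive 1 and 2, incisor, lower molar and upper molar. Among them Msx1, Msx2, Dlx2, Dlx3, Dlx4, Dlx5, Dlx6 and Isl1 had one in all 7 libraries, a pattern shown by 48.8% of all genes. Dlx1 had none in any library. The list's share was above that of all genes in each library, narrowly in Sox2-positive 1 (57.1% against 54.6%) and upper molar (61.9% against 58.3%). With 38000 peaks per library the list had 9 to 14 of 21. Its share was then below that of all genes in ectoderm 1 (42.9% against 53.5%) and upper molar (47.6% against 50.1%), and above it in the others.

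No gene-end peak was found in any library at 30 of the 38 Hox genes, 78.9% against 32.9% of all genes. With 38000 peaks per library it was 36 of 38, 94.7% against 39.8%. At 21 of the 38 no summit lay anywhere in the gene or within 1 kb of it (7 in HoxA, 5 in HoxB, 4 in HoxC and 5 in HoxD). This last count has no share over all genes beside it, so it cannot be read against a background. The 8 genes with a gene-end peak were Hoxa7, Hoxa10, Hoxb2, Hoxb8, Hoxc5, Hoxc10, Hoxc13 and Hoxd1, spread over all 4 clusters and over paralog groups 1, 2, 5, 7, 8, 10 and 13. Groups 3, 4, 6, 9, 11 and 12 had none.

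**Figure D2:**
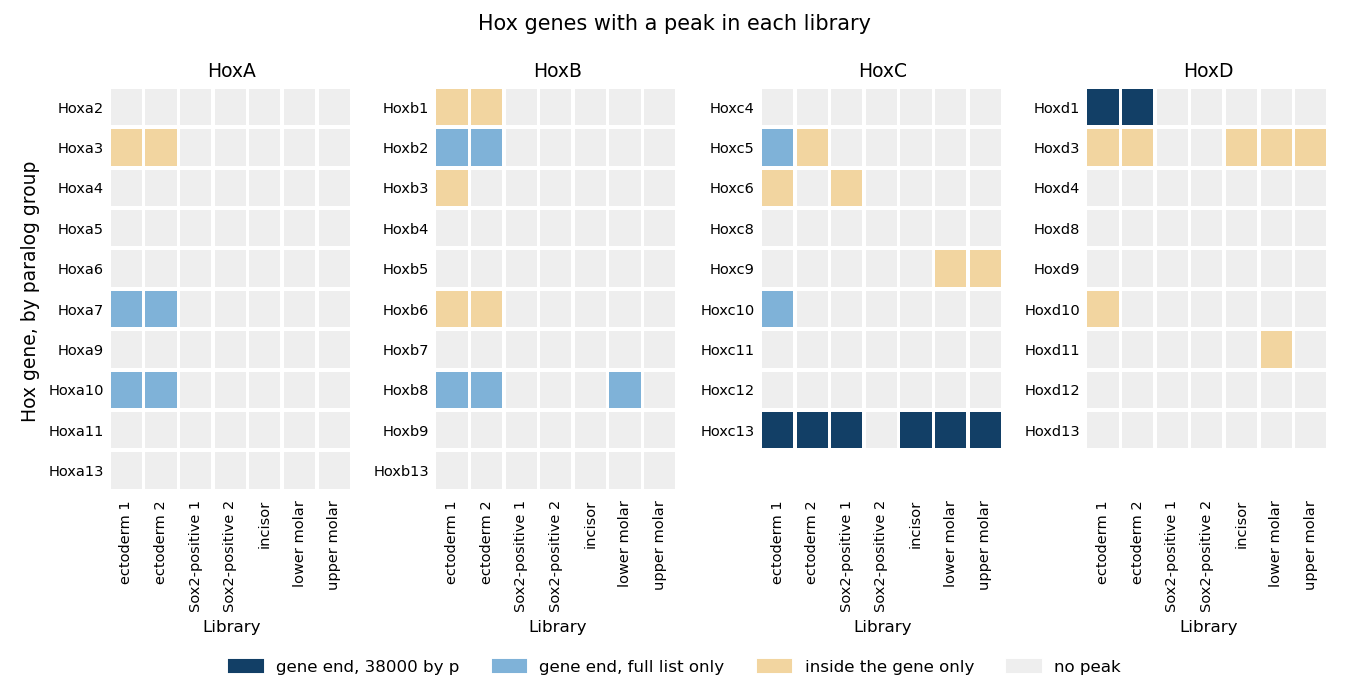
Each row is a Hox gene, ordered by paralog group within its cluster, and each column a library. Dark blue marks a gene-end peak among the 38000 peaks with the smallest p, light blue one in the full list, sand a peak inside the gene away from its ends and grey no peak; Hoxc13 is dark in 6 libraries and Hoxd1 in the 2 ectoderm libraries.

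Hoxc13, the last gene of the HoxC cluster and one known for its role in hair, nail and tongue epithelium, was the Hox gene with a gene-end peak in the most libraries. The gene lies at chr15:102921131-102928814, and its merged region ran from 102920609 to 102922431 across the low-coordinate end. Peak signal, the authors' own value for the significance summed over a peak, was 4070 in ectoderm 1, 3760 in ectoderm 2, 481 in Sox2-positive 1, 759 in incisor, 1530 in lower molar and 1490 in upper molar, and Sox2-positive 2 listed no peak there. These signals were not normalized between libraries, so each was placed within its own list. By p the Hoxc13 peak stood at 5.02% and 7.13% from the top in ectoderm 1 and 2, at 12.4% and 13.0% in lower and upper molar, at 27.8% in incisor and at 59.8% in Sox2-positive 1. It was among the 38000 peaks in 6 of 6 libraries that had it. The 3 whole teeth had an additional, weaker peak at the gene's edge, of signal 211 in incisor, 394 in lower molar and 240 in upper molar, where each ectoderm library had a single wide peak of 1785 and 1821 bp across both positions. The stronger summits lay between 953 and 958 bp inside the gene in the ectoderm and Sox2-positive 1 libraries, just within the 1 kb limit.

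Hoxd1, a group 1 gene, was the other Hox gene whose gene-end peak stayed in the shortened lists. It lies at chr2:74762980-74765142. The peak, at 74762685-74763514, had a signal of 988 in ectoderm 1 and 671 in ectoderm 2, and neither the Sox2-positive cells nor the whole teeth listed one. Its summits were 45 and 29 bp from the gene end, inside the promoter printed above, and it stood at 46.6% and 60.4% by p in its lists, near their middle. An end of Haglr, an antisense RNA gene, lies within 1 kb of the same peak, and ATAC-seq peaks carry no strand, so the promoters of these neighbours cannot be told apart.

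Among the other head-end genes, those of groups 1 to 3, Hoxb2 had a gene-end peak of signal 204 in ectoderm 1 and 327 in ectoderm 2, at 96352957-96353638 on chromosome 11. It overlapped the RNA gene Hoxb3os as well and stood at 83.9% and 78.2% by p, low in both lists. Hoxb1 missed the 1 kb limit narrowly, with summits 1123 and 1098 bp from its nearer end in ectoderm 1 and 2, and signals of 721 and 684. Hoxa2, the gene of this family used from the second arch backwards, had no summit in its body, within 1 kb or within 2.5 kb of its ends in any of the 7 libraries. Inside their long gene models, away from the ends, Hoxa3 had peaks in both ectoderm libraries and Hoxb3 in ectoderm 1.

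Of the trunk genes of groups 4 to 8, Hoxb8 was counted in 3 libraries, with a signal of 380 in ectoderm 1, 237 in ectoderm 2 and 244 in lower molar (96278860-96279074 on chromosome 11). Its RefSeq start of transcription lies further in, at 96281905, and none of these summits lay within 1 kb of that start. Hoxa7 was counted in both ectoderm libraries, with signals of 424 and 210 at 52217467-52217978 on chromosome 6. Both Hoxa7 summits lay 963 bp from the gene end, just within the limit. Hoxc5 was counted in ectoderm 1, with a signal of 359. None of these peaks was among the 38000 of its library. The 4 members of group 4 (Hoxa4, Hoxb4, Hoxc4 and Hoxd4) had no peak in the gene or within 1 kb in any library.

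Of the posterior genes of groups 9 to 13, Hoxa10 was counted in ectoderm 1 and 2 with signals of 444 and 223 (52240441-52240834 on chromosome 6), and Hoxc10 in ectoderm 1 with a signal of 226. Neither was among the 38000 peaks. Apart from Hoxc13, no group 13 gene had a peak in the gene or within 1 kb: Hoxa13, Hoxb13 and Hoxd13 were empty in all 7 libraries. Some genes outside the naming rule were noted after their values were seen. Hoxc9 had a peak inside its gene model in both molars, of signal 431 in lower molar and 391 in upper molar, and in no other library. Hoxd11 had one in lower molar and Hoxd10 in ectoderm 1, the latter beside a start of transcription that lies within its longer gene model.

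The comparison with replicates was between the ectoderm and the Sox2-positive cells. Ectoderm libraries had 7.0 ± 1.41 Hox genes with a gene-end peak (SD, n = 2) and Sox2-positive libraries 0.5 ± 0.707 (SD, n = 2), a difference of 6.5 genes. The lowest ectoderm value, 6, was above the highest Sox2-positive value, 1. With 38000 peaks per library the means were 2.0 ± 0.0 and 0.5 ± 0.707 (SD, n = 2 each). The two-sided exact permutation p was 0.333 in both cases, the smallest that 2 against 2 libraries can give, so this design cannot reach 0.05. Over all genes the ectoderm shares were also higher in the full lists, 63.1% and 60.0% against 54.6% and 53.3% in the Sox2-positive libraries. In the shortened lists the all-gene shares were 53.5% and 55% against 51.8% and 51.7%. The direction of the separation was therefore not particular to Hox genes.

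Gene by gene, 5 Hox genes had a gene-end peak in both ectoderm libraries and in neither Sox2-positive library: Hoxa7, Hoxa10, Hoxb2, Hoxb8 and Hoxd1. That is 13.2% of the 38, against 6.02% of all genes. In the shortened lists it was 1 gene, Hoxd1, 2.63% against 3.26%, which is not above the background. No Hox gene had the opposite pattern, present in both Sox2-positive lists and missing from both ectoderm lists, in the full lists (0.786% of all genes) or the shortened ones (1.37% of all genes). None had a gene-end peak in all 7 libraries, a pattern that 48.8% of all genes showed.

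The clusters were also read as stretches of chromosome, in which ectoderm libraries held more peaks than any later sample. Each cluster was taken from its first to its last member with 50 kb on either side, 0.885 Mb in all. These windows held 43 and 23 peaks in ectoderm 1 and 2, 7 and 3 in Sox2-positive 1 and 2, 10 in incisor, 16 in lower molar and 13 in upper molar. Per Mb this is 48.6 and 26.0 in the ectoderm against 32.9 and 20.2 over all autosomes of the same libraries, so the ectoderm windows were above the density of their own genome in the full lists. In the Sox2-positive cells it is 7.91 and 3.39 against 17.0 and 15.6. Whole teeth had 11.3, 18.1 and 14.7 per Mb against 25.2, 28.0 and 27.3. All 5 postnatal libraries were thus below the density of their own genome.

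With 38000 peaks each, where every library has 15.4 peaks per Mb of autosome, the windows held 13 and 14 peaks in the ectoderm (14.7 and 15.8 per Mb), 6 and 3 in the Sox2-positive cells (6.78 and 3.39 per Mb), and 5, 6 and 6 in the whole teeth (5.65, 6.78 and 6.78 per Mb). The ectoderm mean was 33.0 ± 14.1 peaks in the full lists and the Sox2-positive mean 5.0 ± 2.83 (SD, n = 2 each), a difference of 28.0. In the shortened lists they were 13.5 ± 0.707 and 4.5 ± 2.12. The groups did not overlap either way, and the two-sided exact permutation p was again 0.333, the smallest possible. Stage, tissue and isolation differ together between these groups, so their parts in the difference cannot be told apart.

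**Figure D3:**
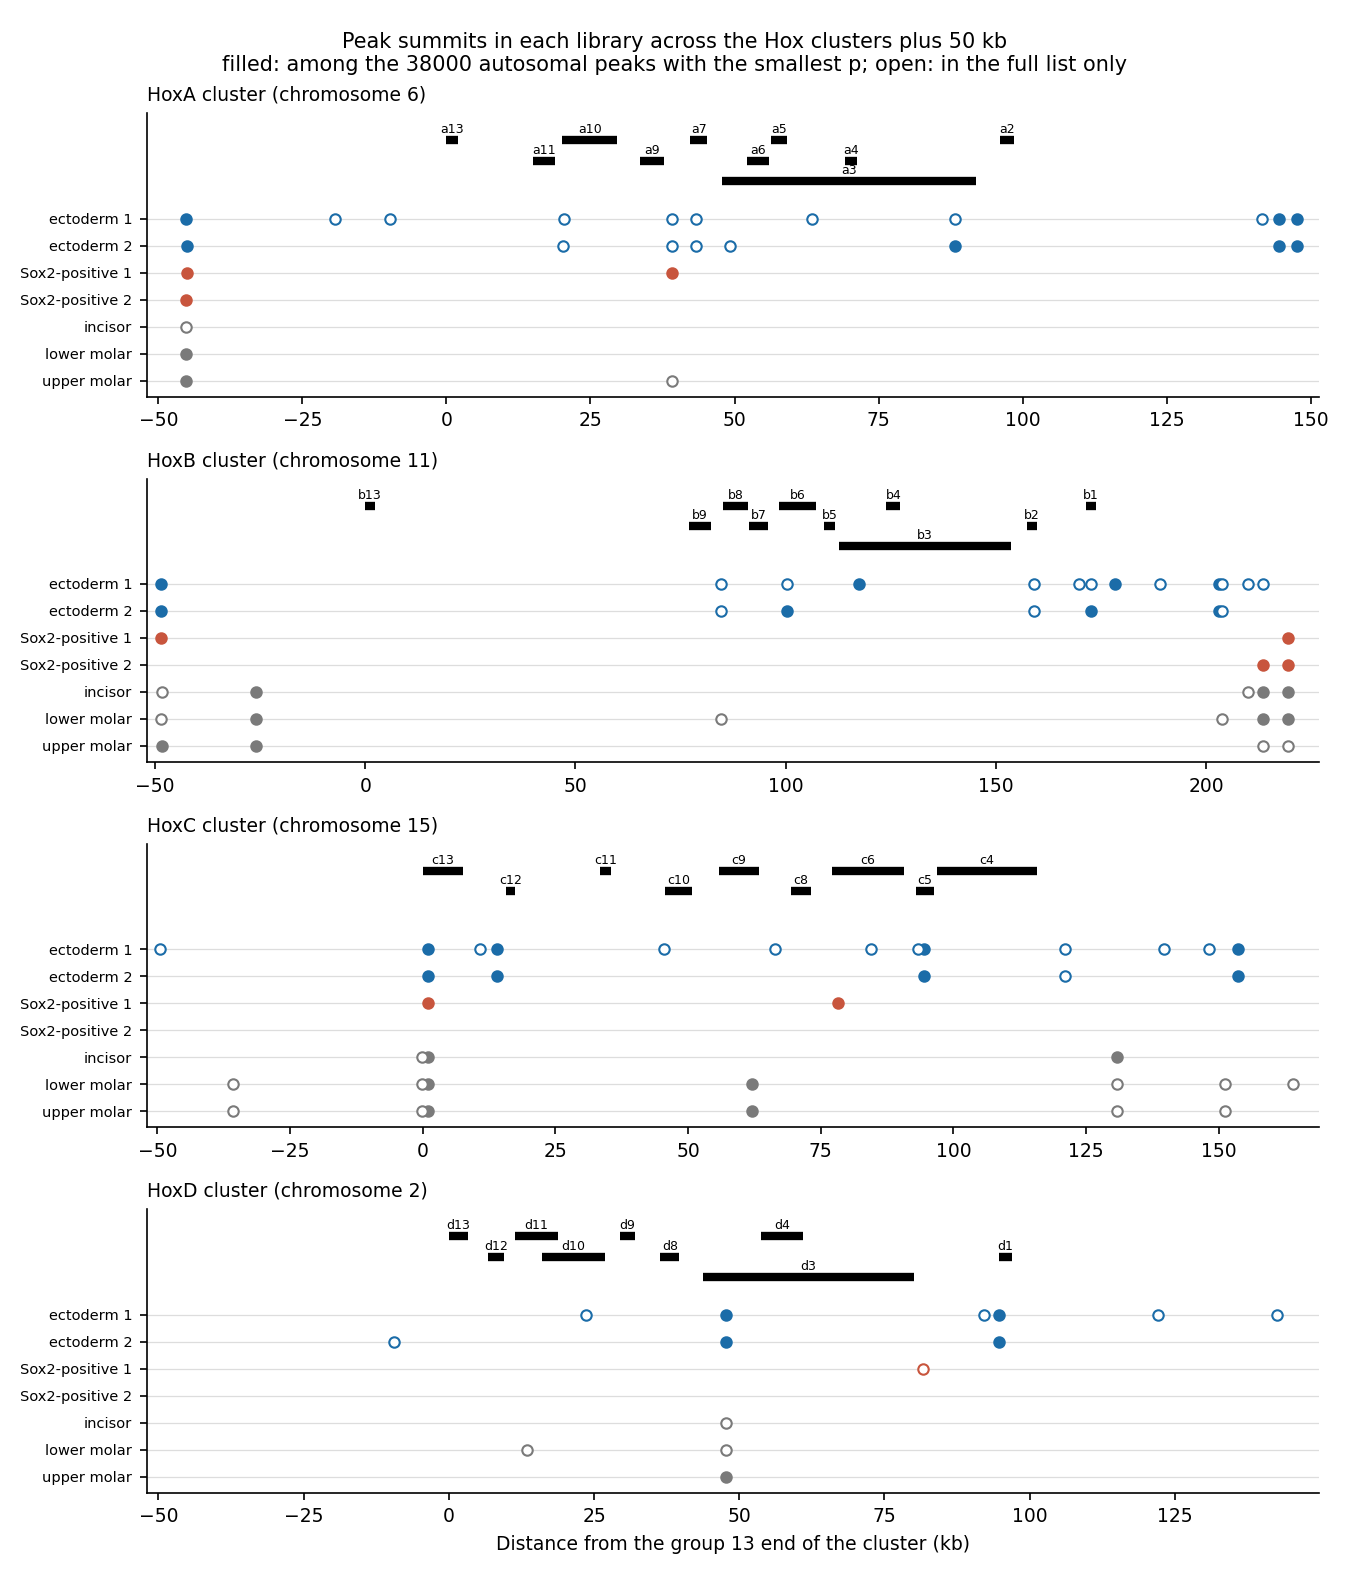
Peak summits of each library (rows) along the 4 clusters with 50 kb on either side; the horizontal axis is the distance in kb from the group 13 end of each cluster, and black bars are the Hox genes. Filled points are among the 38000 peaks with the smallest p and open points are in the full list alone; the ectoderm rows hold 43 and 23 points in all and the row of Sox2-positive 2 holds 3, none of them between the first and the last Hox gene.

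Within the clusters proper, from the first to the last Hox gene (0.485 Mb), the ectoderm had 23 and 14 peaks, the Sox2-positive libraries 4 and 0, incisor 2, lower molar 5 and upper molar 4. In the shortened lists these were 6 and 8, 3 and 0, and 1, 2 and 3. The 50 kb beyond the group 13 ends held 5 and 3 peaks in the ectoderm, 2 and 1 in the Sox2-positive cells, and 4, 5 and 5 in the whole teeth. These whole-tooth counts include the weaker peak at the edge of Hoxc13. The 50 kb beyond the low-numbered ends held 15 and 6 in the ectoderm, 1 and 2 in the Sox2-positive cells, and 4, 6 and 4 in the whole teeth. Shortened, the lists held 2 and 2, 2 and 1, and 1, 2 and 3 peaks in the group 13 flanks, and 5 and 4, 1 and 2, and 3, 2 and 0 in the others. Further out, between 50 and 200 kb from the clusters, the full lists had 64 and 42 peaks in the ectoderm, 24 and 22 in the Sox2-positive cells and 35, 42 and 38 in the whole teeth, so the ectoderm was above the Sox2-positive cells there too, as it was over the autosomes. The shortened lists had 28 and 29, 24 and 22, and 25, 22 and 21, which is 17.5 to 24.2 per Mb and above the 15.4 of the autosomes in all 7.

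**Figure D4:**
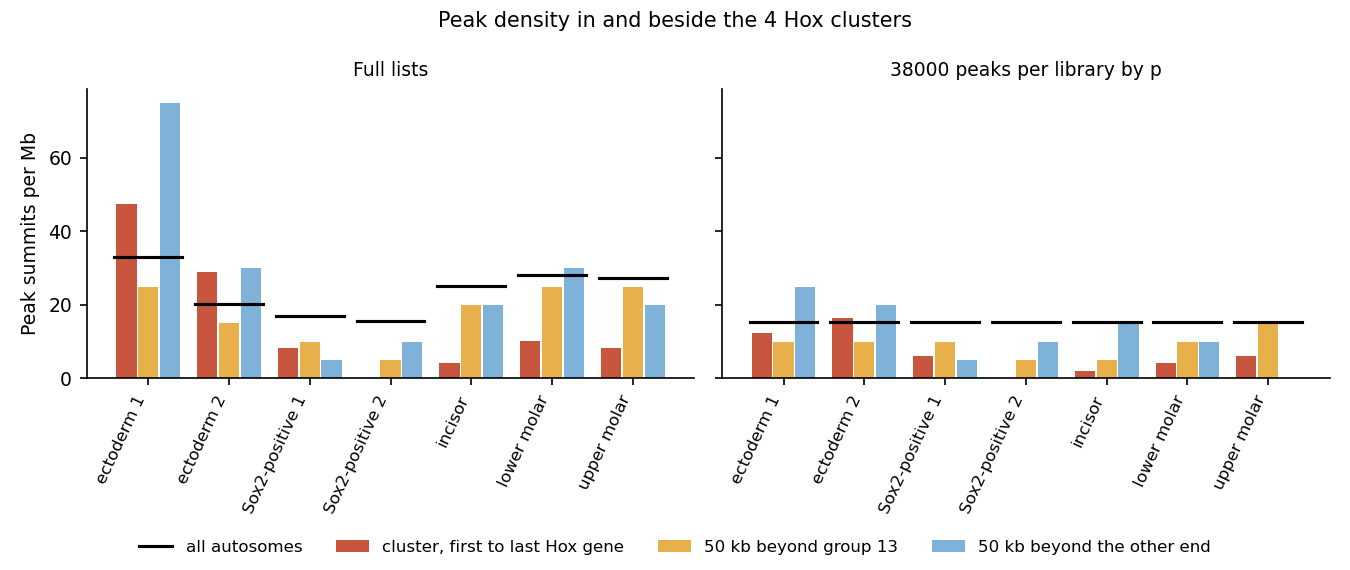
Peak summits per Mb (vertical axis) in each library for the clusters from first to last Hox gene, the 50 kb beyond their group 13 ends and the 50 kb beyond their other ends, with the full lists on the left and 38000 peaks per library on the right; the black line is the density over all autosomes. In the 5 postnatal libraries the bar for the clusters themselves is below the line in both panels.

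The clusters differed in how their peaks spread over the samples. HoxA held 11 and 8 window peaks in the ectoderm and 2, 1, 1, 1 and 2 in Sox2-positive 1 and 2, incisor, lower molar and upper molar. HoxD held 6 and 3 in the ectoderm and 1, 0, 1, 2 and 1 in the same order. HoxB, with 13 and 7 in the ectoderm, kept 2, 2, 5, 6 and 4, and these lay mostly in its flanks. HoxC, with 13 and 5 in the ectoderm, had 2 and 0 in the Sox2-positive libraries and 3, 7 and 6 in the whole teeth. The molars thus had more HoxC peaks than ectoderm 2, in part because Hoxc13 had 2 peaks in each molar and 1 wide peak in ectoderm 2. The order of the molars and ectoderm 2 turned round in the shortened lists. There HoxC held 4 and 4 peaks in the ectoderm, 2 and 0 in the Sox2-positive cells and 2, 2 and 2 in the whole teeth. The shortened lists gave 3, 4, 2, 1, 0, 1 and 1 for HoxA, 4, 4, 2, 2, 3, 3 and 2 for HoxB and 2, 2, 0, 0, 0, 0 and 1 for HoxD, over the 7 libraries in the usual order. Whole teeth have 1 library per tooth, and their values have no replicate check.

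Merging the peaks of all libraries gave 55 regions in the windows, 28 of them between the first and the last Hox gene. One region, 1.82%, was shared by all 7 lists, against 14.2% of the 128641 autosomal regions. It lies at chr6:52305761-52306436, 45.2 kb beyond Hoxa13 and in no gene of the table, with signals of 1300 and 623 in the ectoderm, 360 and 267 in the Sox2-positive cells, 374 in incisor, 703 in lower molar and 711 in upper molar. A further 17 regions (30.9%) had a peak in both ectoderm libraries and in neither Sox2-positive library, against 17.9% of all regions, and 1 (1.82%) had the reverse pattern, against 5.9%. In the shortened lists 8 of 23 regions (34.8%) had the ectoderm pattern, against 15.7%, and 1 (4.35%) the reverse, against 12.0%. None of the 23 was in all 7 libraries, against 19.2%. Regions found in ectoderm libraries alone made up 36 of 55 (65.5%, against 30.5% of all regions). Of these, 20 were in ectoderm 1 alone, the library with the longest list (36.4% of the 55, against 18.3% of all regions). Of the 23 regions of the shortened lists, 12 (52.2%, against 21.9% of all) were in ectoderm libraries alone.

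Some regions ran against that trend. The region with the reverse pattern lies at chr11:96413326-96414231, 45.5 kb beyond Hoxb1 and in no gene of the table. Its signal was 293 in Sox2-positive 1, 858 in Sox2-positive 2, 1190 in incisor, 728 in lower molar and 394 in upper molar, and neither ectoderm library listed it. A neighbour at 96407565-96408107 was listed in ectoderm 1, Sox2-positive 2 and the 3 whole teeth, with signals from 317 in Sox2-positive 2 to 657 in incisor. On the far side of HoxB, a region inside Ttll6 at 96145673-96146168 had a peak in 6 libraries, all but Sox2-positive 2, with signals from 215 to 624. Beyond Hoxc4, chr15:103051673-103052124 was listed in the 3 whole teeth alone, with signals of 689 in incisor, 396 in lower molar and 303 in upper molar.

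Inside the clusters, chr2:74715812-74716131 was shared most widely among the HoxD regions. It lies within the gene models of Hoxd3 and the antisense RNA gene Hoxd3os1, and its signal was 655 in ectoderm 1, 297 in ectoderm 2, 298 in incisor, 329 in lower molar and 462 in upper molar, with no peak in the Sox2-positive cells. Between Hoxa7 and Hoxa9, a region at chr6:52221282-52222096 was listed in both ectoderm libraries (431 and 316), Sox2-positive 1 (221) and upper molar (301). The strongest ectoderm region of the HoxA window lay outside the genes, at chr6:52115653-52117177, 46.0 kb beyond Hoxa2, with signals of 3380 and 2440. In Hoxc5, a region at chr15:103015026-103015828 had signals of 1010 and 921 in the ectoderm and was absent from the other 5 lists. The last region named by the rule, chr2:74810648-74810974 beyond Hoxd1, was listed in ectoderm 1 alone with a signal of 617.

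The clusters hold 6 microRNA genes, and the Hoxc5 region sits beside one of them, Mir615. It had a gene-end peak in both ectoderm libraries, in the full and the shortened lists, and in no other library. The other 5 had none in any library. The peaks counted for Mir615 lie inside the gene model of Hoxc5, so they cannot be assigned to Mir615. No share over all microRNA genes was counted beside these values. Mature sequences of these microRNAs (RefSeq, GRCm38.p6) fall into groups by seed, bases 2 to 8, here in capitals. They are shown because Mir615 was the one gene of the 6 with a peak within 1 kb of its ends.
mmu-miR-615-3p: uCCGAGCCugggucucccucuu
mmu-miR-10a-5p: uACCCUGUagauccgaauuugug
mmu-miR-10b-5p: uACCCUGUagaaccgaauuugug
mmu-miR-196a-5p: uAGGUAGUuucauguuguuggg
mmu-miR-196b-5p: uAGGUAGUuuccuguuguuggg
The miR-10 pair of HoxB and HoxD shares a seed, and so do the miR-196 products of HoxA, HoxB and HoxC, whereas miR-615-3p, from HoxC, has a seed of its own among these 5.

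Most Hox peaks stood in the lower part of their lists. The median rank of the window peaks by p was 61.1% and 69.7% from the top in the ectoderm, 70.7% and 70.2% in the Sox2-positive cells, and 54.7%, 62.7% and 61.9% in the whole teeth, where the median of a whole list is at its middle. One peak in ectoderm 1 and 1 in ectoderm 2, those of Hoxc13, were in the best 10% of their lists, and none of the other 5 libraries had one there. Of the window peaks, 30.2% and 60.9% in the ectoderm were among the 38000, against 47.0% and 76.4% of all autosomal peaks. The corresponding shares were 50%, 37.5% and 46.2% in the whole teeth, against 61.2%, 55.2% and 56.6%. In the Sox2-positive cells, whose lists are little longer than 38000, they were 85.7% against 90.8% and, with all 3 peaks among them, 100% against 99.1%.

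**Figure D5:**
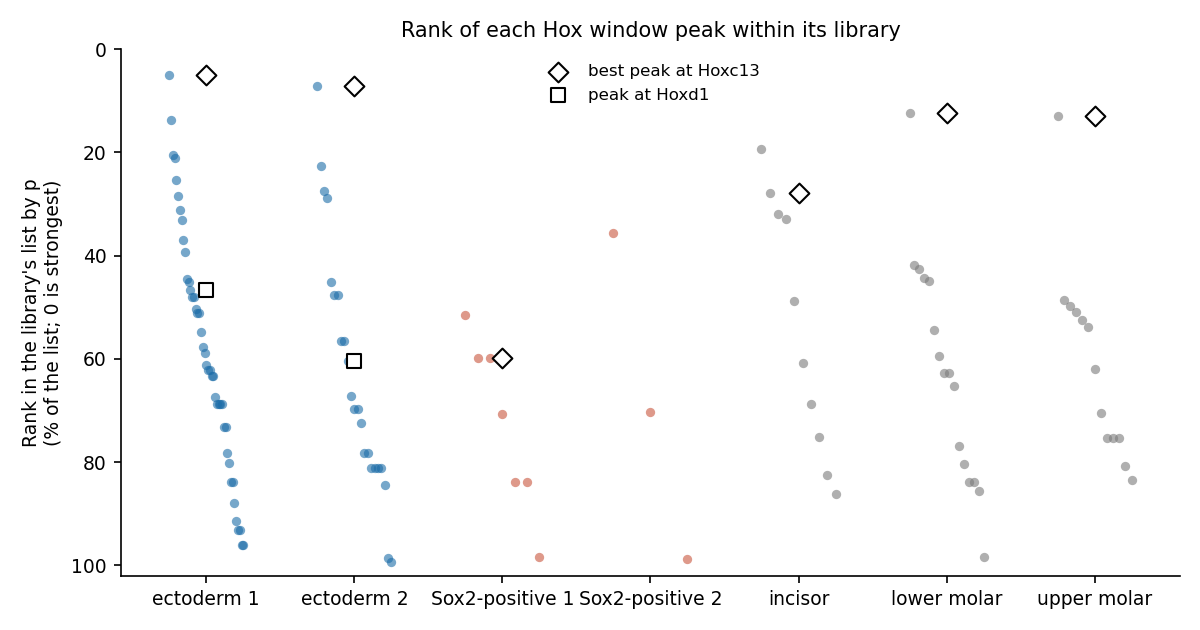
Rank of every Hox window peak in its own library by p, in percent of the list, with the strongest at the top of the axis; each point is a peak, and the diamond and square mark the best peak at Hoxc13 and the peak at Hoxd1. The Hoxc13 peak is the top point in both ectoderm libraries, at 5.02% and 7.13%, and in both molars, at 12.4% and 13.0%.

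The genes beside the clusters had gene-end peaks more often than the Hox genes in every library. Of 14 neighbours in the gene table, 10 and 9 had a gene-end peak in the ectoderm, 6 in each Sox2-positive library and 6, 7 and 7 in the whole teeth. These shares, 71.4% and 64.3% in the ectoderm, 42.9% in both Sox2-positive libraries and incisor and 50% in the molars, were above that of all genes in the ectoderm and below it in the 5 postnatal libraries. Of the 14, the shortened lists had 9 and 8 with one in the ectoderm and 6 in each of the other 5. Lnpk and Mtx2 beside HoxD, Skap2, Hibadh and Tax1bp1 beside HoxA, and Calcoco1 beside HoxC had one in all 7 libraries. Evx1, a homeobox gene beyond Hoxa13, and Ttll6, beyond Hoxb13, had one in both ectoderm libraries alone; when the lists were shortened Ttll6 kept it in ectoderm 1. Evx2, the counterpart of Evx1 beside HoxD, had none in any library, nor did Skap1 or the long noncoding RNA genes Hottip and Hotair.

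Of 25 regulators and cofactors, 19 had a gene-end peak in each ectoderm library, 16 and 17 in the Sox2-positive libraries, and 17, 16 and 16 in the whole teeth. These shares, 64.0% to 76.0%, were above that of all genes and below that of CpG-rich genes in 7 of 7 full lists. The shortened lists had 14 and 18, 15 and 17, and 15, 15 and 14 of 25. All 7 libraries, a pattern shown by 48.8% of all genes, had one at Ezh2, Eed and Suz12, which form the Polycomb complex that methylates histone H3, at Ring1, Rnf2 and Bmi1 of the other Polycomb complex, at the retinoic acid receptor genes Rara and Rarg, at Ctcf, and at Meis1, Pbx2 and Pbx4, whose products bind DNA together with Hox proteins. Meis2 and Cdx2 had one in both ectoderm libraries alone, and in the shortened lists Cdx2 kept it in ectoderm 2. Cdx2 is a homeobox activator of trunk Hox genes. Cdx1, Cdx4 and Egr2, also activators of Hox genes, and Rarb and Meis3 had none in any library.

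Markers of the trunk and limbs, where Hox genes are used, were counted beside these values. Of the 3, Cdx2 had a gene-end peak in ectoderm 1 and 2, and Tbx4 and Tbx5 had none in any library. Neural markers had one in 4 of 5 cases in ectoderm 1 and in 1 of 5 in ectoderm 2, with Sox10 at none. Muscle markers had one in 3 and 1 of 4, with Myf5 at none. In Sox2-positive 1 and 2, incisor, lower molar and upper molar, neural markers had one in 2, 1, 1, 2 and 2 of 5 cases. Muscle markers had one in 1, 0, 1, 2 and 2 of 4 there, so ectoderm 2 was below the molars for both lists. Over all protein-coding genes the share was 63.1% in ectoderm 1 and 60.0% in ectoderm 2, against 33.3% of the trunk and limb markers in each. With shortened lists the neural markers stood at 1 of 5 and the muscle markers at 1 of 4 in both ectoderm libraries, and Cdx2 was left in ectoderm 2. The part of such cells in the ectoderm's Hox peaks was not tested.

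Sequence features of the Hox promoters were described for the 24 in the table. The core of the CTCF motif was found in 1 of the 24, the Hoxa10 sequence printed above. Its share was 8.06% of all promoters and 16.2% of CpG-rich ones, and 9 of the 24 were CpG-rich. The Hox-Pbx motif TGATNNAT, read on both strands, was found in 4 of 24, those of Hoxa2, Hoxb1, Hoxb8 and Hoxd11. The share with this motif was 8.85% of all promoters and 2.1% of CpG-rich ones. None of those 4 promoters lay under a peak. The same held for the rest of the 24 apart from Hoxd1, Hoxd10 and the printed Hoxa10 sequence. Direct repeats of the retinoic acid receptor half-site AGGTCA, spaced by 5 or 2 bases, were in none of the 24 and in 6 of the 32851. A match is a run of letters in a short window, and none was read as a bound site.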

How the data were processed

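Open chromatin was profiled by Omni-ATAC, per the labels' protocols, in 7 libraries, and the deposited files are 1 Genrich peak list per library. The submitters' processing notes name FastQC, Trimmomatic, Bowtie2, deepTools, Genrich and build mm10; versions, options and any shift of reads for the transposase are not given in the sources used here. The authors deposited for each peak a signal, never below 200.0, and the −log10 of its p-value, from 2.56 to 17.8. The authors also deposited a peak score, made by the caller and not used here. No value is normalized between libraries, so signal and p were used within a list to rank or describe peaks. Lists hold no counts, so depth is unknown, no count model was possible and no interval is given. Genes and promoters came from RefSeq GRCm38.p6.

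A peak belonged to a gene if its summit lay within 1 kb of a gene end, and to a cluster by its summit. Regions were peaks of any library joined by at least 1 bp. Lists were also shortened to the 38000 autosomal peaks with the smallest p, ties by signal, in place of tests that need depth. Groups came from sample titles. Only the ectoderm and Sox2-positive groups have replicates, and their difference was set against a two-sided exact permutation test over libraries; p-values measure the spread of these samples only. Genes with a gene-end peak in 2 or more libraries were named with all values, those in 1 with that library, and up to 3 regions per cluster by number of libraries, then rank. Python 3.11.15, pandas 2.3.3, numpy 2.4.6, scipy 1.17.1 and matplotlib 3.10.9 were used, and the counting was tested on simulated data. Alternatives were equal lists by p or signal, gene-end windows of 500 bp and 2.5 kb, any base of a peak, flanks of 0 and 100 kb, 50% coverage of a region, each replicate left out, and a replicate block. The members and lists were chosen with earlier results of these data known. Among the genes planned, 1 of the clusters and 2 of the comparison lists are not reported here, and the 3 peaks within 1 kb of the former, 1 in each of 3 libraries, were left out. Signal tracks and sequences under peaks were not used here.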

Additional observations from a re-analysis of the deposited data

How the results depend on the processing

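No depth is known and the lists differ in length, which limits every count. The lead of the ectoderm over the Sox2-positive cells kept its direction under every alternative run, from 1.5 to 13.0 genes (main value 6.5) and from 9.0 to 39.0 window peaks (main value 28.0). Leaving out a replicate gave 5.5 to 7.5 genes and 18.0 to 38.0 peaks. With the replicate block the differences were 6.5 and 28.0 and the smallest two-sided exact sign-flip p is 0.5; the replicate numbers name samples and no label ties them to a shared litter or day. Taking 38000 peaks by p gave 2 genes in ectoderm 1, 2 in ectoderm 2 and 1 in lower molar, and 13, 14, 5, 6 and 6 window peaks in ectoderm 1 and 2, incisor, lower molar and upper molar. Taking them by signal gave 2, 3 and 1 genes in those libraries, and 12, 14, 4, 4, 4 and 2 window peaks in ectoderm 1 and 2, Sox2-positive 1, incisor, lower molar and upper molar. A 500 bp gene-end window gave 5, 3 and 0 genes in ectoderm 1, ectoderm 2 and Sox2-positive 1, and Hoxc13 was then counted in the 3 whole teeth alone. A 2.5 kb window gave 15, 15, 4, 5 and 3 in ectoderm 1, ectoderm 2, Sox2-positive 1, lower molar and upper molar, and a peak between close neighbours could then count for more than 1 gene. Without flanks the window peaks were 23, 14, 4, 0, 2, 5 and 4 in the 7 libraries in their usual order, and with 100 kb they were 12, 6, 17, 27 and 23 in Sox2-positive 1 and 2, incisor, lower molar and upper molar. All-gene shares were counted for the 1 kb window alone, in the full lists and those shortened by p. Gene counts under any other alternative therefore have no background here. Genes open in both ectoderm libraries and no Sox2-positive one (main value 5) numbered 1 by p, 1 by signal, 3 with 500 bp and 12 with 2.5 kb, and 5 to 7 with a replicate left out. Regions of that pattern (main value 17) numbered 8 by p, 9 by signal and 11 without flanks, and 17 to 38 with a replicate left out, the 38 being without ectoderm 2. Regions of the reverse pattern (main value 1) numbered 0 without flanks, 0 when a peak had to cover 50% of the region and 2 with 100 kb, and 1 to 3 with a replicate left out, the 3 being without Sox2-positive 2. Genes of the reverse pattern stayed at 0 when a replicate was left out. Regions in all libraries (main value 1) numbered 0 by p, 0 by signal, 0 without flanks and 3 with 100 kb. No difference between the groups changed sign under an alternative, and 53 counts moved by more than 1.5 times or to or from 0. Counting from the 22 genes' start sites in the promoter table, an alternative chosen after seeing the data, gave 4, 3, 0, 0, 0, 1 and 0 genes in the 7 libraries. These were Hoxa7, Hoxa10 and Hoxd1 in both ectoderm libraries, Hoxd10 in ectoderm 1 and Hoxd11 in lower molar, so Hoxb8 dropped out. Hoxc13 is not among the 22, so its peaks could not enter that count.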
